A study of Mus musculus with 14 samples.

Results

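The AP-1 family genes examined here are Fos, Fosb, Fosl1, Fosl2, Jun, Junb, Jund and Atf3, 8 of 21951 protein-coding mouse genes in the annotation. They were taken by name, and their data are all ChIP-seq peaks in each gene body and within 50 kb of it, which came to 405 of the 243429 peaks in 12 lists. ChIP-seq recovers the DNA that an antibody pulls down, and a peak is an interval where the recovered tags pile up. The cells were 3T3-L1, a mouse fibroblast line, differentiated to adipocytes in culture. They were left untreated (control) or treated for 1 h with forskolin (FSK, 10 µM), with TNFα, or with FSK and TNFα together. The antibodies were against CRTC2, the NF-κB subunit p65 and histone H3 acetylated at lysine 27 (H3AcK27). Each combination of antibody and treatment was 1 library, so no difference between treatments could be set against replicate error, no test was possible, and no p-value is given. Intervals beside ratios are 95% exact binomial intervals of the tag numbers and cover counting error only.

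AP-1 is a dimer of a Jun protein with a Fos, Jun or ATF protein, and it binds the word TGACTCA. Jun, Junb and Jund encode the Jun proteins, Fos, Fosb, Fosl1 and Fosl2 the Fos proteins, and Atf3 a stress-induced relative that binds CRE and AP-1 words. Several of these genes are immediate-early genes, which are switched on within minutes by growth factors, cytokines or cAMP without new protein synthesis. CRTC2 is a coactivator that enters the nucleus when cAMP is high and binds CREB, and CREB binds the cAMP response element (CRE) TGACGTCA or its core TGACG. FSK activates adenylyl cyclase and raises cAMP, and TNFα is a cytokine that activates p65 and the kinases that act on Jun.

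The authors called peaks against an untreated input where no FSK had been given and against an FSK-treated input where it had, so the input moves with FSK. Library totals ranged from 9832884 tags (H3AcK27, FSK) to 31807394 tags (CRTC2, FSK/TNFα), and the lists from 214 peaks (p65, control) to 52321 (H3AcK27, control). Of 10 adipocyte marker genes, 4 (Fabp4, Pparg, Lpl and Lipe) had an H3AcK27 region at the promoter in every list and 6 had none in any, whereas 5, 4, 5 and 5 of 5 preadipocyte or fibroblast markers had one in the control, FSK, TNFα and FSK/TNFα lists. Leukocyte markers had 1, 1, 2 and 2 of 6, and endothelial markers 1, 0, 2 and 1 of 4. What share of the cells had become adipocytes cannot be told from these lists.

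In GRCm38 the Jun genes, of which Jund is on the plus strand and the others on the minus strand, are Jun at chr4:95049034-95052222, Junb at chr8:84974484-84978718 and Jund at chr8:70698949-70700616, and each is coded in 1 exon. The Fos genes are Fos at chr12:85473890-85477273, Fosb at chr7:19302696-19310051 (minus strand), Fosl1 at chr19:5447547-5455946 and Fosl2 at chr5:32135801-32157842. Atf3 at chr1:191170296-191218039 is on the minus strand and has an outer start and an inner start, and Fosb and Fosl1 also have more than 1 start.

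The core word TGACG, on either strand, was present between 1000 bases upstream and 100 bases downstream of a start in every member, against 44.5% of 54361 start sites of protein-coding genes. In the 250 bases before a start it was present in 7 of the 8 members, all but Jun, against 20% of start sites. Some members have several starts, so a share of genes and a share of starts are not the same measure. The stretches below are shown because they hold the candidate CREB words nearest before the first start of each gene. Not every word is shown, and the Fosl1 words at −128 and −64 of its second start, inside a longer transcript, are left out. Capitals mark TGACG, its reverse complement CGTCA, or an 8-base word within 1 mismatch of TGACGTCA (a rule chosen after the data were seen; 10.1% of start sites have one in the 250 bases before them). Sequences are from the RefSeq GRCm38.p6 assembly and are written 5′ to 3′ on the strand of the gene.
Fos promoter, chr12:85473746-85473843, plus strand: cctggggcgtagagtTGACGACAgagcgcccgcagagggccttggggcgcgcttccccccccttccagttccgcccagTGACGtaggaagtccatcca
Fosb promoter, chr7:19310086-19310120, minus strand: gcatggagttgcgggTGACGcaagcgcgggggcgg
Fosl1 upstream word, chr19:5447183-5447217, plus strand: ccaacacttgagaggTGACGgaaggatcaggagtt
Fosl2 promoter, chr5:32135618-32135800, plus strand: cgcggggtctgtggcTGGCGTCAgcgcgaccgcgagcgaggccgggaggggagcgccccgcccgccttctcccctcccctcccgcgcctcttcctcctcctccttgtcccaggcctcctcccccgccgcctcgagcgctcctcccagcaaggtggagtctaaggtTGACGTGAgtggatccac
Jun promoter, chr4:95052245-95052282, minus strand: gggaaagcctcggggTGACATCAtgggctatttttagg
Junb promoter, chr8:84978835-84978869, minus strand: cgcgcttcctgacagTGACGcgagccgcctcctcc
Jund promoter, chr8:70698720-70698871, plus strand: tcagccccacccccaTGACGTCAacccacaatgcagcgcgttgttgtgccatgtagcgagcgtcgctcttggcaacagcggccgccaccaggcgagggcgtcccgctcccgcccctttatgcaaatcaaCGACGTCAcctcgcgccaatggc
Atf3 promoter, chr1:191218044-191218144, minus strand: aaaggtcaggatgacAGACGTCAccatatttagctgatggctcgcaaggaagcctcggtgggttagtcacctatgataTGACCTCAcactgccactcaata

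Jund held the only whole TGACGTCA among the member promoters, at −214 to −207 from its start, against 3.02% of start sites. Jun held TGACATCA at −45 to −38, 1 mismatch from the whole CRE. Fosl2 held the only exact TGACTCA, at 53 to 59 bases downstream of its start, against 15.6% of start sites. The exact NF-κB consensus of the study was at no member promoter and at 0.55% of start sites.

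Most of the promoter words lay outside the CRTC2 peaks, which were 157 to 163 bp wide and in the treated lists had their highest peak centred just downstream of a start in Fos, Fosb, Fosl1, Jun and Jund. The words that did lie inside a promoter peak were further upstream in 3 genes, and those stretches are shown because they join a word to a called peak. In Fos the word at −66 was inside the FSK/TNFα peak. In the Jun stretch the separate CGTCA word lay inside the peak of each treated list. Its AGACGTCA word lay inside none of them and only overlapped the edge of the FSK and TNFα peaks.
Fosl2 upstream CRTC2 peak, chr5:32135404-32135438, plus strand: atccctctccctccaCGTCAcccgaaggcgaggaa
Jun upstream CRTC2 peak, chr4:95052506-95052564, minus strand: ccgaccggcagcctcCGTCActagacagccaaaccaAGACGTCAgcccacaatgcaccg
Jund upstream CRTC2 peak, chr8:70698459-70698493, plus strand: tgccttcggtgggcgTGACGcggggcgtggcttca

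By normalized tags, the CRTC2 promoter levels of Jun, Junb and Jund were the highest of the family in each list. All 3 had their highest level with TNFα alone. Fos, Fosb, Fosl1 and Fosl2 had lower levels, and all 4 had their highest level with FSK and TNFα together. Levels are normalized tags per 10000000, summed over the peaks on a promoter, and are not corrected for input. By fold over input the order of the genes was not the same. With FSK/TNFα the Jun peak at the start (24.76-fold) was below the promoter peaks of Fos (68.4), Fosb (65.83) and Fosl2 (57.71) and above that of Fosl1 (9.73). In control it was at 14.58-fold, below Junb (16.33) and above Fos (13.61) and Fosl2 (7.71). Jund is left out of both comparisons, and Junb of the one with FSK/TNFα. By peak score per library tag, described below, the order of the treatments differed: Fos, Fosl1, Jun and Junb were then highest with FSK, and Fosb, Fosl2 and Jund with FSK/TNFα. A CRTC2 promoter peak was called for 5 of 8 members in control (11.8% of all genes), 6 with FSK (27.3%), 6 with TNFα (39.7%) and 7 with FSK/TNFα (29.0%). Atf3 was the member without one in any list.

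**Figure D1:**
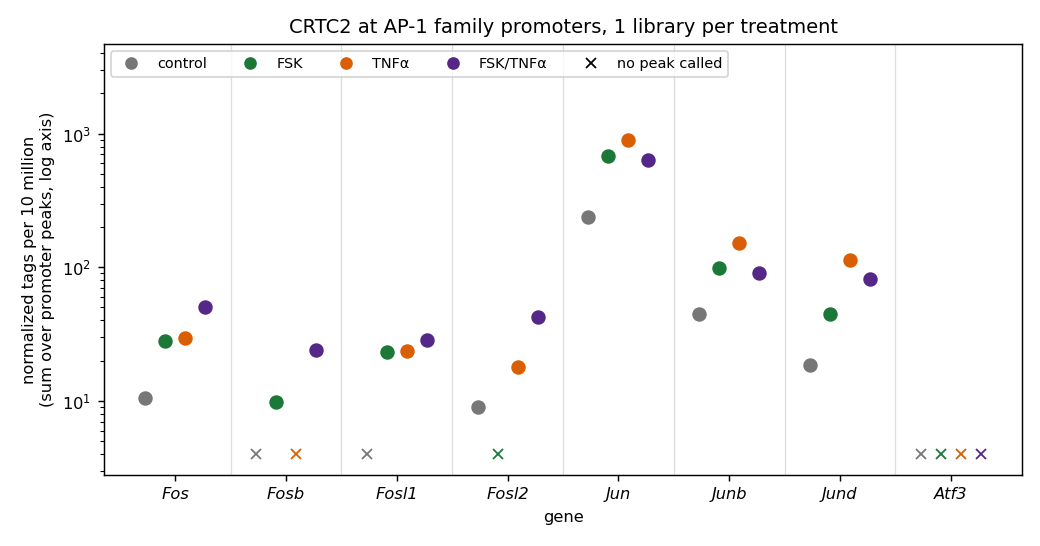
CRTC2 normalized tags per 10000000 summed over the promoter peaks of each gene (vertical log axis), 1 point per library, coloured by treatment; crosses at the bottom mark libraries with no promoter peak. Jun ranges from 238.3 to 893.8, and the FSK/TNFα point is the highest of its gene in Fos, Fosb, Fosl1 and Fosl2 but not in Jun, Junb and Jund.

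Jun, the best known AP-1 subunit, had 238.3 normalized CRTC2 tags at its promoter in control, 685.6 with FSK, 893.8 with TNFα and 634.7 with FSK/TNFα. It was the gene with the most CRTC2 promoter tags of all genes in each of the 4 lists. The total came from a peak 45 to 62 bases downstream of the start, with 238.3, 546.9, 721.5 and 500.8 tags, and in the 3 treated lists from a second peak centred 379 to 389 bases upstream, with 138.7, 172.3 and 133.9 tags. The control list had no second peak. The second peak held a CGTCA word in each treated list.

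The Jun levels stand on a dense input. The input under the H3AcK27 regions of the Jun window was 18.6 to 22.9 times as dense as under the median region of the same list, whereas in the other 7 windows it was 1.05 to 2.3 times. The Jun peak at the start had 14.58-fold, 30.39-fold, 46.72-fold and 24.76-fold the input tags in control, FSK, TNFα and FSK/TNFα. Every called peak had to be at least 4-fold over input, so a value above the input is given by the calling rule. The upstream peak was nearer the 4-fold minimum, at 4.49-fold with FSK, 9.5-fold with TNFα and 4.19-fold with FSK/TNFα. The part of the input in the Jun levels was not tested. The 3 genes with the most similar CRTC2 promoter levels over the 4 libraries, by Euclidean distance on log2(tags + 1), were Ppp1r12a (0.679), Nup107 (1.16) and Ift74 (3.53). Their control inputs were 55.7, 40.5 and 9.32 normalized tags, against 16.4 at Jun.

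Junb, which encodes a Jun protein that can also restrain Jun, had 44.5 tags in control, 97.9 with FSK, 151.5 with TNFα and 90.9 with FSK/TNFα, in a single peak over its start. Its peak was ranked 16, 30, 26 and 28 by score in lists of 5188, 11749, 19527 and 14171 peaks. Jund, the most constant Jun gene in many cell types, had 18.5, 44.4, 114.1 and 82.4 tags. In control the Jund tags came from 2 weak peaks, 10.6 at −417 and 7.94 at +106, and in the treated lists mostly from a peak 19 to 29 bases downstream of the start with 44.4, 87.3 and 82.4 tags.

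Fos, the prototype immediate-early gene and a known CREB target, had 10.6 tags in control, 28.0 with FSK, 29.5 with TNFα and 50.3 with FSK/TNFα, in 1 peak over its start in every list. The single treatments were close to each other and the combination was the highest. Fosb, a close relative of Fos, had no promoter peak in control or with TNFα, 9.73 tags with FSK and 24.2 with FSK/TNFα. With TNFα the nearest peak was in an intron, at 13.2 tags, 1178 bases downstream of the first start and 727 downstream of an inner start. That locus also had 12.6 tags with FSK/TNFα. Fosl1, which encodes Fra-1, had no promoter peak in control, then 23.1, 23.8 and 28.6 tags with FSK, TNFα and FSK/TNFα, in a peak 51 to 102 bases downstream of its second start.

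Fosl2, which encodes Fra-2, used different sites in different lists. The control peak of 9.0 tags was centred 79 bases downstream of the start and overlapped the TGACTCA word, whereas the TNFα (17.8 tags) and FSK/TNFα (42.4 tags) peaks were upstream of the start, centred at −297 and −306. FSK alone had no promoter peak but its highest Fosl2 peak was 2074 bases upstream, at 62.7 tags and rank 109 of 11749. That upstream locus had 21.5 tags with TNFα, 54.4 with FSK/TNFα and no peak in control. With a promoter drawn from 2000 bases upstream to 500 downstream, Fosl2 also had a promoter peak with FSK.

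For genes with a promoter peak in both lists, treated libraries had more normalized CRTC2 tags than control at most promoters, with a median ratio over all such genes of 1.68 with FSK, 2.41 with TNFα and 1.59 with FSK/TNFα. The members' medians were 2.52 (4 members), 3.4 (5 members) and 4.44 (5 members). The ratio was at least 2-fold in 4 of 4 members with FSK, where 36.7% of 2116 genes reached that size, in 4 of 5 with TNFα (64.6% of 2495 genes) and in 5 of 5 with FSK/TNFα (34.2% of 2079 genes). The 3 comparisons share the control library.

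Over control, Fos had the highest ratio with FSK/TNFα at 4.75 (interval 2.97 to 7.99), with 2.64 (1.53 to 4.72) for FSK and 2.78 (1.69 to 4.8) for TNFα. For Jund, TNFα gave the highest ratio at 6.15 (4.33 to 9), FSK gave 2.39 (1.58 to 3.7) and the combination 4.44 (3.12 to 6.52). The Jund sums cover 2 peaks in control and with TNFα and 1 in the other lists, and the highest peak alone, which in control lay at −417 and not at the start, gave 4.19 with FSK, 8.24 with TNFα and 7.77 with FSK/TNFα. Junb had 2.2, 3.4 and 2.04, and Jun had 2.88, 3.75 and 2.66. The Jun sums cover 1 peak in control and 2 in the treated lists, and the peak at the start alone gave 2.3, 3.03 and 2.1. A ratio as high as that of Jund with TNFα was reached by 3.33% of genes, and one as high as that of Fos with FSK/TNFα by 1.35%. The Fosl2 ratios, 1.98 with TNFα and 4.71 with FSK/TNFα, compare different sites within its promoter.

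CRTC2 tags at Fos and Fosl2 were higher with FSK/TNFα than with TNFα alone, and those at Jun and Junb were lower. Over all 5919 genes with a peak in both lists the median ratio of FSK/TNFα over TNFα was 0.662, and 5% of genes were above 1.48. Fos was above that at 1.71 (1.29 to 2.27), as was Fosl2 at 2.38 (1.7 to 3.41), whereas Fosl1 was at 1.2 (0.862 to 1.68). Junb at 0.6 (0.514 to 0.699), Jun at 0.71 (0.669 to 0.754) and Jund at 0.722 (0.61 to 0.855) were near the median of all genes. The Jund value includes a TNFα peak at −438 that was not called with FSK/TNFα, and its peak at the start alone gave 0.944. Ratios as high as those of Fos and Fosl2 were reached by 2.82% and 0.946% of genes.

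**Figure D2:**
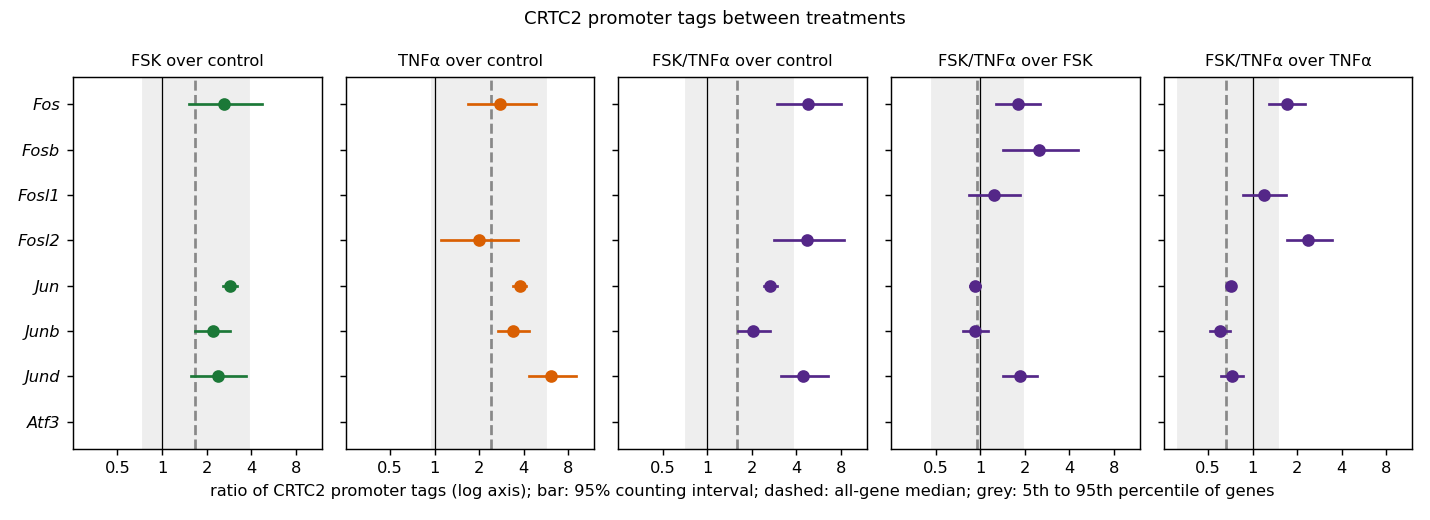
Ratio of CRTC2 promoter tags between treatments for members with a peak in both lists (horizontal log axis, 1 panel per comparison), with 95% counting intervals as bars, the median over all genes as a dashed line and the 5th to 95th percentile of genes in grey. In the panel of FSK/TNFα over TNFα, Fos (1.71) and Fosl2 (2.38) lie beyond the grey band and Jun, Junb and Jund lie near the median of 0.662.

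Adding TNFα to FSK gave a median ratio of 0.959 over 4746 genes. Fosb had 2.49 (1.44 to 4.57), Jund 1.86 (1.43 to 2.44) and Fos 1.8 (1.29 to 2.55). Fosl1 had 1.24 (0.839 to 1.86), Junb 0.928 (0.762 to 1.13) and Jun 0.926 (0.86 to 0.997). A ratio as high as that of Fosb was reached by 1.31% of genes.

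The number of tags in a peak and the number of distinct positions they cover gave different ratios in part of the family. The peak score counts at most 1 tag per base position, and the median peak had 2.25, 1.667, 2.714 and 2.333 tags per unit of score in the CRTC2 control, FSK, TNFα and FSK/TNFα lists. By score per library tag, Fos was 0.861 and Fosl1 0.651 with FSK/TNFα over FSK, both below 1, where the median of all genes was 0.658. Jund was 1.06 over TNFα, where the median was 0.832. Over TNFα, Fos was at 1.7 and Fosl2 at 2.77 by score, and scores as high were reached by 2.58% and 0.456% of genes. The Jun ratios over control were 2.06, 1.39 and 1.13 by score, with FSK, TNFα and FSK/TNFα. Each was below the median of all genes, which was 2.15, 1.74 and 1.41. How far repeated tags enter these levels was not tested.

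Away from its promoter, each member but Jun had CRTC2 peaks in its window in every treated list, and Jun had one with TNFα only. The share of all genes with such a peak was not counted, so this cannot be called particular to the family. The 8 windows held 18 CRTC2 peaks in control, and 33, 43 and 41 in the FSK, TNFα and FSK/TNFα lists. Of these, 6, 9, 16 and 11 lay at promoters of other genes. With each list cut to its 5188 best-scored peaks, the length of the control list, the windows held 18, 21, 19 and 24. Overlapping peaks merged to 72 loci, of which 10 were at member promoters. Of the 72, 54 were absent from the control list, 9 were in all 4 lists and 36 in 1 list only (75%, 12.5% and 50%). Of all 33768 CRTC2 loci, 84.6% were absent from control, 4.37% were in all 4 lists and 68.8% in 1 list only. The loci of 1 list were 16 with TNFα, 9 with FSK/TNFα, 6 in control and 5 with FSK. H3AcK27 regions of at least 1 list covered 69 loci, and regions of all 4 lists covered 59. The share of all CRTC2 loci covered in this way was not counted, so the cover cannot be called particular to the family.

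**Figure D3:**
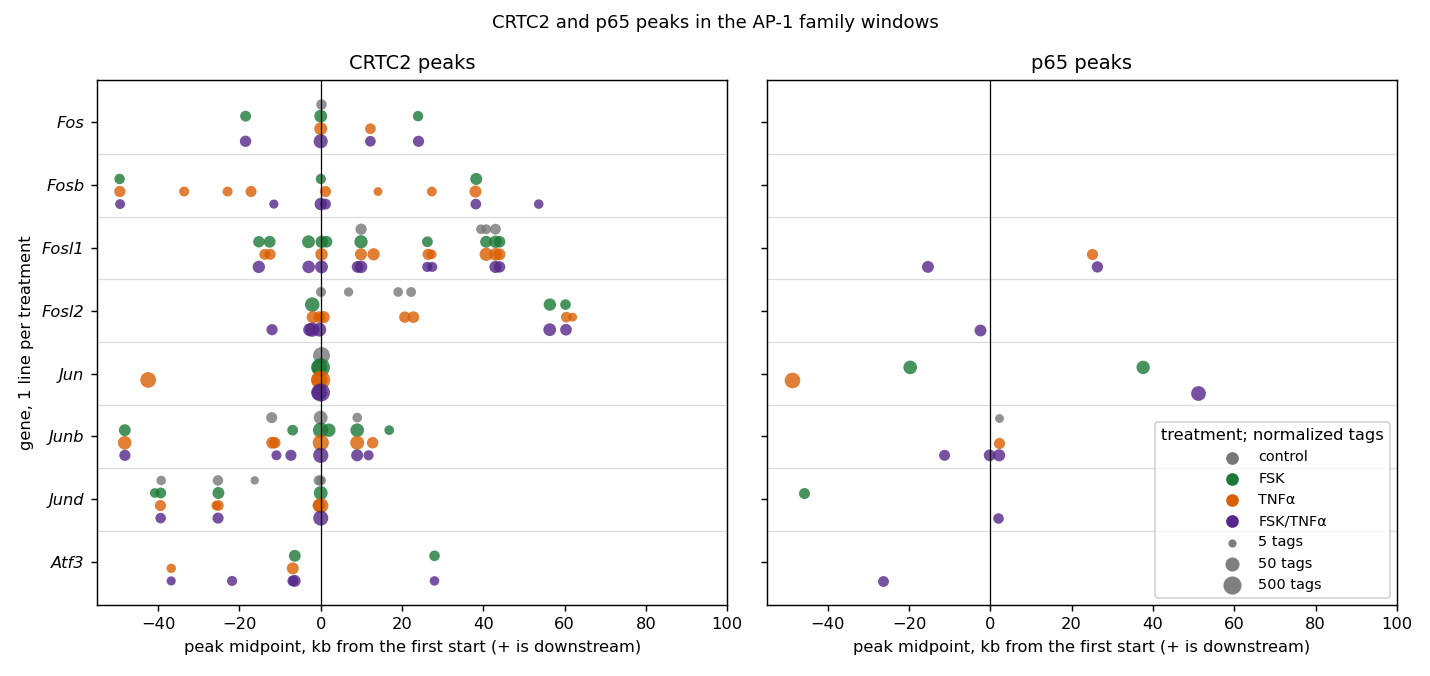
Midpoints of the CRTC2 peaks (left) and p65 peaks (right) in kb from the first start of each gene, with 1 line per treatment and larger points for more normalized tags. The CRTC2 panel holds 18, 33, 43 and 41 peaks in the control, FSK, TNFα and FSK/TNFα lists and the p65 panel 1, 3, 3 and 9.

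Atf3 had CRTC2 only at a distance. A locus 6377 bases upstream of its outer start had 18.3 tags with FSK and 19.2 with FSK/TNFα and none in the other lists, and its neighbour 6860 bases upstream had 18.9 tags with TNFα and 11.6 with FSK/TNFα. Between the 2 Atf3 starts, an intronic locus had 11 tags with FSK and 7.55 with FSK/TNFα. Fos had distal loci 18473 bases upstream (12.2 tags with FSK, 14.8 with FSK/TNFα), 12232 bases downstream (11.3 with TNFα, 11.3 with FSK/TNFα) and 24015 bases downstream (10.3 with FSK, 13.8 with FSK/TNFα). No distal Fos or Atf3 locus was in the control list.

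Of the 72 loci, 13 held TGACG within 200 bp around their midpoint (18.1%, Wilson 95% interval 10.9 to 28.5), against 17.1% of 33768 CRTC2 loci in the genome. The AP-1 word TGACTCA was in 9 (12.5%, 6.72 to 22.1) against 10.4%, and the NF-κB word in 0 of 72, for which the Wilson interval reaches 5.07%, against 0.252%. The intervals of the CRE and AP-1 shares hold the share of all loci. A merged locus can be wider than 200 bp, so a word inside a single peak can fall outside that window, as at the Fosl2 locus 2006 bases upstream. The stretches below are shown because they join a word to a distal CRTC2 locus with many tags for its gene, with the core CRE and AP-1 words of either strand in capitals.
Fos distal locus, chr12:85455359-85455484, plus strand: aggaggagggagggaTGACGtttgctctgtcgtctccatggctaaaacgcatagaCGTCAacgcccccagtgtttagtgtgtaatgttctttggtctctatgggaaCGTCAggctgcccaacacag
Fosl1 distal locus, chr19:5432283-5432317, plus strand: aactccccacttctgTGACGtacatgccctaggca
Fosl2 upstream distal peak, chr5:32133668-32133702, plus strand: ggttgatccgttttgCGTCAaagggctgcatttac
Fosl2 downstream distal locus, chr5:32192202-32192255, plus strand: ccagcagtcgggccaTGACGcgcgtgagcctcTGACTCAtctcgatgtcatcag
Junb downstream locus, chr8:84976599-84976668, minus strand: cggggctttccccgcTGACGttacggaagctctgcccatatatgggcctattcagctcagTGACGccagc
Atf3 distal locus, chr1:191224394-191224464, minus strand: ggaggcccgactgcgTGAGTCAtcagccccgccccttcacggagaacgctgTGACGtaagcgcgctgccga

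In the Fos stretch 3 TGACG words lay within 126 bases. The CGTCA word of the Fosl2 upstream stretch lay inside the FSK peak of 62.7 tags and the FSK/TNFα peak of 54.4 tags. The Fosl2 downstream stretch, 56359 bases downstream of the start with 22.5 tags with FSK and 26.7 with FSK/TNFα, and the Atf3 stretch each held a CRE word and an AP-1 word. The 9 loci with the AP-1 word were 4 of Fosl2, 3 of Atf3 and 2 of Junb. No locus of Fos, Fosb, Fosl1, Jun or Jund held it.

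Other genes in the windows also had CRTC2 at their promoters. The Fosl1 window held CRTC2 promoter peaks of 5 other genes, with the most tags at Ccdc85b (34.7, FSK), Mus81 (34.4, TNFα) and Cfl1 (25.3, TNFα). The Junb window held 5, among which Rnaseh2a, Gm49661 and Prdx2 shared 1 peak (47.6, TNFα). The Fosb window held 4, led by Vasp (19.5, FSK) and by Cd3eap and Ppp1r13l (14.0, TNFα), and the Jund window held Pgpep1 (13.6, TNFα) and Lsm4 (7.18, TNFα).

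p65 peaks were few in number in the AP-1 windows. With Jun counted, a larger share of the members than of all genes had one, on few genes. There were 1, 3, 3 and 9 p65 peaks in the 8 windows in control, FSK, TNFα and FSK/TNFα, and 1 of 8 members had any in control (1.91% of all genes), 2 with FSK (16.9%), 3 with TNFα (14.9%) and 6 with FSK/TNFα (22.3%). Without Jun, whose input is dense, these were 1, 1, 2 and 5 of 7, and the FSK share was then below that of all genes. At promoters there were 0 members in control (0.0911% of genes), 0 with FSK (0.583%), 0 with TNFα (0.624%) and 1 with FSK/TNFα (1.01%), which was Junb. A p65 list of 214 peaks in control can show few sites at this depth.

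At Junb, p65 was called just past the end of the coding transcript, 2164 bases from the start in control (6.04 tags), 2035 with TNFα (13.4 tags) and 2166 with FSK/TNFα (20.5 tags). The locus is shown above as the Junb downstream locus, and FSK was the list without a p65 peak there. CRTC2 was called at the same place in the FSK list only, at 35.3 tags, 132 bases past that transcript. The Junb promoter peak of p65, at −171 with FSK/TNFα, had 16.6 tags, and it covered the TGACG word at −136 while the CRTC2 peak of that list was centred at +21.

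At Fosl2 the FSK/TNFα list placed p65 2433 bases upstream (18.1 tags), between CRTC2 peaks of 31.4 tags at −2693 and 54.4 tags at −2042. Atf3 had p65 26414 bases upstream (12.2 tags) and Jund 1912 bases downstream (10.7 tags), both with FSK/TNFα. Jund also had a p65 peak with FSK alone, outside its promoter (12.8 tags). Overlapping CRTC2 and p65 peaks of the same treatment were found at 0 loci in control, FSK and TNFα and at 2 with FSK/TNFα, both in the Fosl1 window. The first was centred at −15276 (22.3 CRTC2 and 18.5 p65 tags) and the second 26121 bases downstream at the promoter of Efemp2 (9.43 and 14.6). The share of all CRTC2 or p65 peaks that overlap was not counted, so these overlaps cannot be called particular to the family. Fos and Fosb had no p65 peak in any list.

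The 4 p65 peaks of the Jun window were each at a different place, and 3 of them lay over a dense input. The exception was an FSK peak 37594 bases downstream, with 35.3 tags, 13.71-fold over an input of 2.57 tags. The other FSK peak, 19698 bases upstream, had 40.1 tags and was 4.54-fold over an input of 8.82 tags. The highest, 48747 bases upstream with TNFα, had 114.5 tags and was ranked first of 2404, over an input of 21.4 tags. It was 5.35-fold over input, against 34.39-fold at the Junb downstream locus in the same list. The FSK/TNFα peak 51007 bases downstream had 70.8 tags and was 4.37-fold over an input of 16.2 tags. The CRTC2 peak 42433 bases upstream of Jun with TNFα (117.9 tags) was 7.97-fold over an input of 14.8 tags.

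H3AcK27, a mark of active promoters and enhancers, covered the promoters of 7 of 8 members in every list, against 51.4% of all genes in control, 46.7% with FSK, 51.1% with TNFα and 48.9% with FSK/TNFα. Atf3 was again the exception, with no region at either start in any list, although regions were called elsewhere in its window, 10 in control, 5 with FSK, 12 with TNFα and 6 with FSK/TNFα. No member's promoter tags differed by 2-fold or more in either direction between a treated list and control. Few genes rose that far: the 95th percentile of ratios over control was 1.5 (FSK), 1.65 (TNFα) and 1.74 (FSK/TNFα). The 5th percentile was 0.371, 0.69 and 0.436 in the same order. Jun came closest to the rule, at 0.537 for FSK over control. The share of all genes past 2-fold was not counted, so this cannot be called particular to the family.

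Jun had the most H3AcK27 tags of the family, in control 12223, with FSK 6566, with TNFα 10269 and with FSK/TNFα 8158, over its dense input. Fosl2 had 2144, 3052, 2708 and 3183, Junb 1904, 2693, 3137 and 2360, and Fosl1 1775, 1974, 1540 and 2276. Jund had 771.7, 609.2, 727.7 and 623.8, Fos 152.2, 169.8, 159.5 and 215.3, and Fosb 128.3, 144.4, 109.1 and 178.8. In Fos, Fosb, Fosl1 and Fosl2 the FSK/TNFα list had the highest level, as it did for CRTC2 tags, and in Jun and Jund the control list had it. Per kb of region, Fosb (55.45 with FSK, 51.6 with FSK/TNFα) and Fosl2 (263.4 and 255.4) were highest with FSK.

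**Figure D4:**
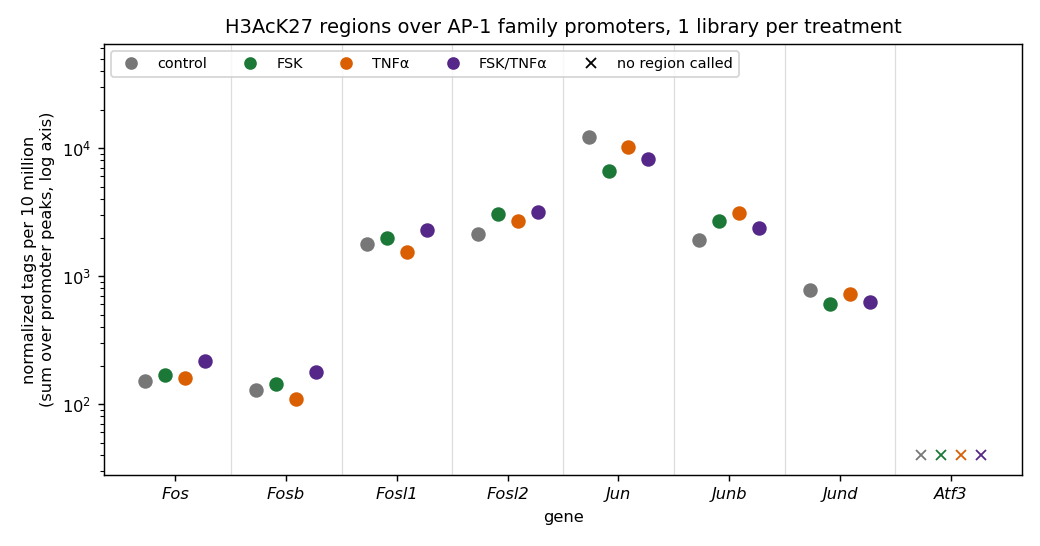
H3AcK27 normalized tags per 10000000 summed over the regions on each promoter (vertical log axis), 1 point per library, coloured by treatment; crosses mark libraries with no region. Fos, Fosb, Fosl1 and Fosl2 are highest with FSK/TNFα, Jun (12223) and Jund (771.7) are highest in control, and Atf3 has none.

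With FSK/TNFα over control the ratio was 1.41 (1.24 to 1.61) for Fos, 1.39 (1.21 to 1.61) for Fosb, 1.28 (1.23 to 1.33) for Fosl1 and 1.48 (1.44 to 1.54) for Fosl2, where the median of 10525 genes was 0.988 and 5% of genes were above 1.74. Jun was 0.667 (0.656 to 0.679) and Jund 0.808 (0.757 to 0.863). Regions were stitched from smaller windows and differed in width between lists, and per kb of region the 4 Fos-type ratios were 1.1, 1.14, 1.46 and 1.27. The Junb ratio with FSK over control was 1.41 by tags and 0.895 per kb, since its region was 13971 bp wide in control and 22084 bp with FSK.

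Among 25 other genes of the pathway, which encode the kinases upstream of AP-1, the SRF and ETS factors at the Fos promoter, and further bZIP partners, a CRTC2 promoter peak was called for 8 in control, 15 with FSK, 18 with TNFα and 13 with FSK/TNFα. The shares of all genes with one were 11.8%, 27.3%, 39.7% and 29.0%. Maff, a small Maf protein, had 8.47, 23.7, 28.7 and 50.6 tags and was highest with FSK/TNFα as Fos was. Map2k4, a kinase that activates JNK, had 6.35, 22.5, 48.7 and 37.4 tags and was highest with TNFα as Jun was. Atf4 had a peak in control only (11.6 tags), and no peak was called in any list for Batf, Batf2, Batf3, Map3k1 and Mapk10. p65 was at the promoter of 1 of the 25 genes with TNFα (0.624% of all genes) and 1 with FSK/TNFα (1.01%), in both Mafg (15.6 tags each). H3AcK27 was at 20 in each list, against 51.4%, 46.7%, 51.1% and 48.9% of all genes.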

How the data were processed

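ChIP-seq peak lists of CRTC2, p65 and H3AcK27 were used from 3T3-L1 adipocytes under 4 treatments, 1 library each, 12 lists in all. Per the labels, the submitters' processing notes name STAR, HOMER and mm10, without versions. The deposited HOMER lists give for each peak a signal, the normalized tag count per 10000000 tags, a peak score with at most 1 tag per position, and a fold ratio over input, all made by the authors. Per the file headers, peaks had to be 4-fold over input (Poisson p of 0.0001) at a false discovery rate of 0.001, CRTC2 and p65 peaks also 4-fold over the surrounding 10 kb, and H3AcK27 regions were stitched from 500 bp windows. Both inputs enter only through these lists. Each peak's tags were recomputed from the normalized value and the library total, because the total tag columns were scaled to the input in some lists.

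Genes and start sites were taken from GENCODE release M21 (GRCm38), a promoter ran from 1000 bp before to 100 bp after each start, an overlap needed 1 bp, and coordinates are 1-based. RefSeq places the Fosl2 and Jund starts differently. Named were the 8 members, other genes with a CRTC2 promoter peak in a window (at most 3 per window), the 3 genes most like the member with the most CRTC2 tags, and genes of a fixed pathway list, of which 1 is not reported here. The members, lists and motifs were chosen with earlier results of these data known. Code was tested on simulated data with planted overlaps, motifs and ratios. Tools were Python 3.11.15, pandas 2.3.3, scipy 1.17.1 and pysam 0.24.0.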

Additional observations from a re-analysis of the deposited data

Results flagged for a closer look

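CRTC2 promoter tags of the Jun genes differed in opposite directions when FSK was given without and with TNFα. FSK alone over control gave ratios of 2.88 at Jun, 2.2 at Junb and 2.39 at Jund, whereas FSK/TNFα over TNFα gave 0.71, 0.6 and 0.722. At Jun the same held for TNFα, with 3.75 over control and 0.926 when it was added to FSK. The Jund value of 0.722 is less firm, since its highest peak alone gave 0.944 and its score 1.06. The counting interval of each of the ratios by summed tags excludes 1, but with 1 library per treatment the difference between the ratios was not tested. The median over all genes also turned, from 1.68 to 0.662 for FSK and from 2.41 to 0.959 for TNFα.

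The input, which no comparison uses by itself, was dense in the Jun window. Under its H3AcK27 regions it had 22.3 times the tags per kb of the median region in the control list and 18.6 times in the FSK list. With TNFα it had 21.8 times and with FSK/TNFα 22.9 times. In normalized tags per kb the Jun input was 100 in the lists with the untreated input and 118 in those with the FSK-treated input. The median region was 4.5 in control and 6.35 with FSK.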

How the results depend on the processing

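No paired analysis was possible because each antibody and treatment had 1 library. Of the CRTC2 promoter counts, none moved by over 1.5 times under any of the 5 alternatives. With lists of equal length the CRTC2 peaks in the 8 windows were 21, 19 and 24 with FSK, TNFα and FSK/TNFα, and with 8-fold over input 25 with FSK/TNFα. p65 promoter members were 1 in control and 1 with TNFα with starts of all transcripts, and 0 with FSK/TNFα in lists of equal length. p65 window peaks were 0 in control and 5 with FSK/TNFα at 8-fold, and 1 with TNFα and 1 with FSK/TNFα in lists of equal length. The H3AcK27 promoter count was 3, 1, 1 and 1 when the region's midpoint had to lie in the promoter, and the window regions were 27, 23, 30 and 21 at 8-fold. Co-bound loci with FSK/TNFα were 1 at 8-fold and 0 with midpoints within 100 bp. The CRE share was 8.33% in 100 bp, 38.9% in 400 bp and 0% for the whole CRE, and the AP-1 share 23.6% in 400 bp.

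Of 148 alternative values of the promoter ratios, 103 stayed within the counting interval, 36 left it without changing direction where the direction had been called, and 9 turned. By score, Fos with FSK/TNFα over FSK was 0.861 and Jund over TNFα 1.06. Per kb of region, H3AcK27 gave 0.931 (Fosb) and 0.97 (Fosl2) with FSK/TNFα over FSK, 1.39 (Fosl1) and 0.866 (Fosl2) with TNFα over control, and at Junb 0.895 with FSK over control, 1.43 with FSK/TNFα over FSK and 1.2 over TNFα.

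Without replicates, no level can be set against the spread between cultures, and a member without a peak was not called at this depth, which does not show absence. The FSK lists share an input that differs from that of the other lists, so FSK and the input cannot be told apart. The highest promoter peak alone, and the count without the Jun window, were chosen after seeing the data.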
